A study of Mus musculus with 11 samples.

Results

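The 42 genes described here encode proteins of the spliceosome and of its regulators, and were read by symbol from a table of 24411 genes counted in mouse testis. They comprise 6 genes of the SF3A and SF3B parts of the U2 particle, 2 U2AF genes, 2 U1 proteins, 5 Sm ring proteins, 6 proteins of the U5 particle and the tri-snRNP, 1 gene of the Prp19 complex, 7 SR proteins, 2 SR-related matrix proteins, 9 hnRNPs and 2 helicases. All 42 were found in the table and all 42 passed the filter on low counts in each of the 3 comparisons, with a lowest count of 232 reads in any library.

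RNA came from whole decapsulated testes of untreated 20-week-old mice: 4 WT mice (C57Bl/6J), 4 Irp1-/- mice with a global knockout of Aco1, and 3 Irp2-/- mice with a global knockout of Ireb2. Per the study's methods, the Irp1-/- line was bred on C57Bl/6J and its WT controls were littermates, while the breeding of the Irp2-/- mice is not given in the sources used here. Nothing in the labels says whether libraries of a genotype came from separate litters, and p-values measure only the spread between these libraries. The study asked which transcripts related to sperm production differ between Irp1-deficient and WT testes, and the Irp2-/- libraries give the same readout for the second iron regulatory protein.

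Splicing removes introns from pre-mRNA in a series of steps. The U1 particle recognises the start of an intron, U2AF and the U2 particle with its SF3A and SF3B proteins recognise the branch point and the end of the intron, and the U4/U6.U5 tri-snRNP then joins and is rearranged into the active enzyme. SR proteins mostly promote the use of nearby exons and hnRNPs often oppose it, and the testis is known for an unusually rich set of alternatively spliced transcripts.

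Total counts ranged from 16358055 to 18257228 reads in WT, from 15902473 to 22451417 in Irp1-/- and from 18519415 to 22349732 in Irp2-/- libraries. In each of the 15 pairs of libraries of 1 genotype the counts were farther apart than sampling alone gives (chi-square per degree of freedom 1.98 to 6.996), and none was treated as a copy. CPM below are counts divided by library size with TMM scaling over all 11 libraries, so that libraries of different depth can be set side by side. Aco1 had 11.8 CPM in WT and 8.60 CPM in Irp1-/- testes (log2 fold change -0.45, adjusted p = 0.0158, edgeR), so that reads on the targeted gene were still counted in the knockout. The call of Aco1 was lost in edgeR when WT replicate 2, 3 or 4 was left out (adjusted p of 0.052 to 0.075), as well as on dropping the library of Irp1-/- replicate 6. Ireb2 had 140 CPM in WT and 62.1 CPM in Irp2-/- testes (log2 fold change -1.16, adjusted p = 2.84e-13, edgeR). Germ cell markers were abundant in every library, with 21316 to 26849 CPM summed over 10 genes of elongating spermatids, and 6 epididymis genes summed to at most 4.51 CPM.

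Promoters of 5 genes are shown because Srrm2 was the only gene of the 42 past the threshold in any comparison, and each of the others was among the 3 genes with the smallest p in one direction of a comparison. These 5 were picked from 11 such genes after their values were seen. They are the 250 bases before a RefSeq transcript start on GRCm38.p6 (mm10), written 5′ to 3′ on the strand of the gene. For Srrm2, Snrpd2 and Hnrnpd that start lies inside the RefSeq span of the gene, so the window is not the one before its outermost start. Capitals mark matches to 4 motifs on either strand, and touching matches run together. The GC box was searched as GGGCGG. The box named CCAAT was searched by those letters. The core of the site bound by ETS factors was searched as CCGGAAG. The core of the cyclic AMP response element (CRE) was searched as TGACG.
Srrm2 (chr17:23802937-23803186, + strand): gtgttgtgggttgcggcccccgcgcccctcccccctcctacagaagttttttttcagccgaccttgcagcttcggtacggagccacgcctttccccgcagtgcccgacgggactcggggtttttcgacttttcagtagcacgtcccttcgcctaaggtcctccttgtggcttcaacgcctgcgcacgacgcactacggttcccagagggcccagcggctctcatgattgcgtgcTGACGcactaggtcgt
Prpf8 (chr11:75486527-75486776, + strand): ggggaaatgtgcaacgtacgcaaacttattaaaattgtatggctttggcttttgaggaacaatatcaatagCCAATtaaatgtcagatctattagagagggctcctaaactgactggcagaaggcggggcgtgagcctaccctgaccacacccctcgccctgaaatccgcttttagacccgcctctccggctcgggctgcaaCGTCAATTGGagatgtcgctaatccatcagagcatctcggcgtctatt
Snrnp200 (chr2:127208136-127208385, + strand): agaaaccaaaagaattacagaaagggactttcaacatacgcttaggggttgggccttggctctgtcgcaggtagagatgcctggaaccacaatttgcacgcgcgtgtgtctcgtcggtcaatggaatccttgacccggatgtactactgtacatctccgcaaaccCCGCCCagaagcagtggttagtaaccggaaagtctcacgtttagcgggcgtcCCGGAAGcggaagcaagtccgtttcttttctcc
Hnrnpd (chr5:99978939-99979188, - strand): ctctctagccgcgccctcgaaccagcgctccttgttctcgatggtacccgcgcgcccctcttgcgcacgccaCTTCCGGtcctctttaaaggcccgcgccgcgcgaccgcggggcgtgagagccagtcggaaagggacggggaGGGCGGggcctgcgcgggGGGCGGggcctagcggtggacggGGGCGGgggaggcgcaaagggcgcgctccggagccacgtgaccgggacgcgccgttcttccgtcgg
Snrpd2 (chr7:19149588-19149837, + strand): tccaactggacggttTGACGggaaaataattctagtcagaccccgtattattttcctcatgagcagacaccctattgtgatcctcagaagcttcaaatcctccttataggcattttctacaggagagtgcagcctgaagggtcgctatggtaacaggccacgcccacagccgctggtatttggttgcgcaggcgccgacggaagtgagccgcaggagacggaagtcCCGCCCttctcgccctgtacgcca

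In these windows Hnrnpd held 3 GC boxes and 1 ETS core, Snrnp200 held 1 of each, Prpf8 held 2 CCAAT boxes and 1 CRE core, and Snrpd2 held 1 GC box and 1 CRE core. The window shown for Srrm2, the scaffold protein gene, held 1 CRE core and none of the other 3 motifs. Promoter windows were found for 38 of the 42 genes. A gene was counted if any of its windows held the motif, and the number of windows per gene was not matched. The ETS core was present in 12 of the 38 (31.6%), against 13.3% of 12362 expressed genes with a promoter of the same length, and the CRE core in 16 of 38 (42.1%), against 27.7%. The GC box was found in 60.5% against 57.5% and the CCAAT box in 39.5% against 39.9%. A TATA box (TATAAA) was found for 5 of the 38 genes (13.2%, against 8.64% of all) and the YY1 core (AAGATGG) for 1 (2.63%, against 5.09%). The median GC content, taken from the first window of each gene, was 60.0% for the 38 genes and 58.8% for all. These are matches of letters and not measured binding.

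Splicing genes were expressed at high levels in WT testes. Per kilobase of annotated exon, their median level was 17.7 CPM per kb, against 3.62 CPM per kb over 15749 expressed genes. All 42 lay above that median, and 3 of them (Hnrnpu, Hnrnpk and Hnrnpa2b1) lay in the top 10%. Variation between WT mice was small, with a median coefficient of variation of 3.38% over the 42 genes (0.897% to 11.8%) against 7.34% over all expressed genes. That background holds many genes with fewer reads and thus more counting error, and no background matched for level was computed.

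**Figure D1:**
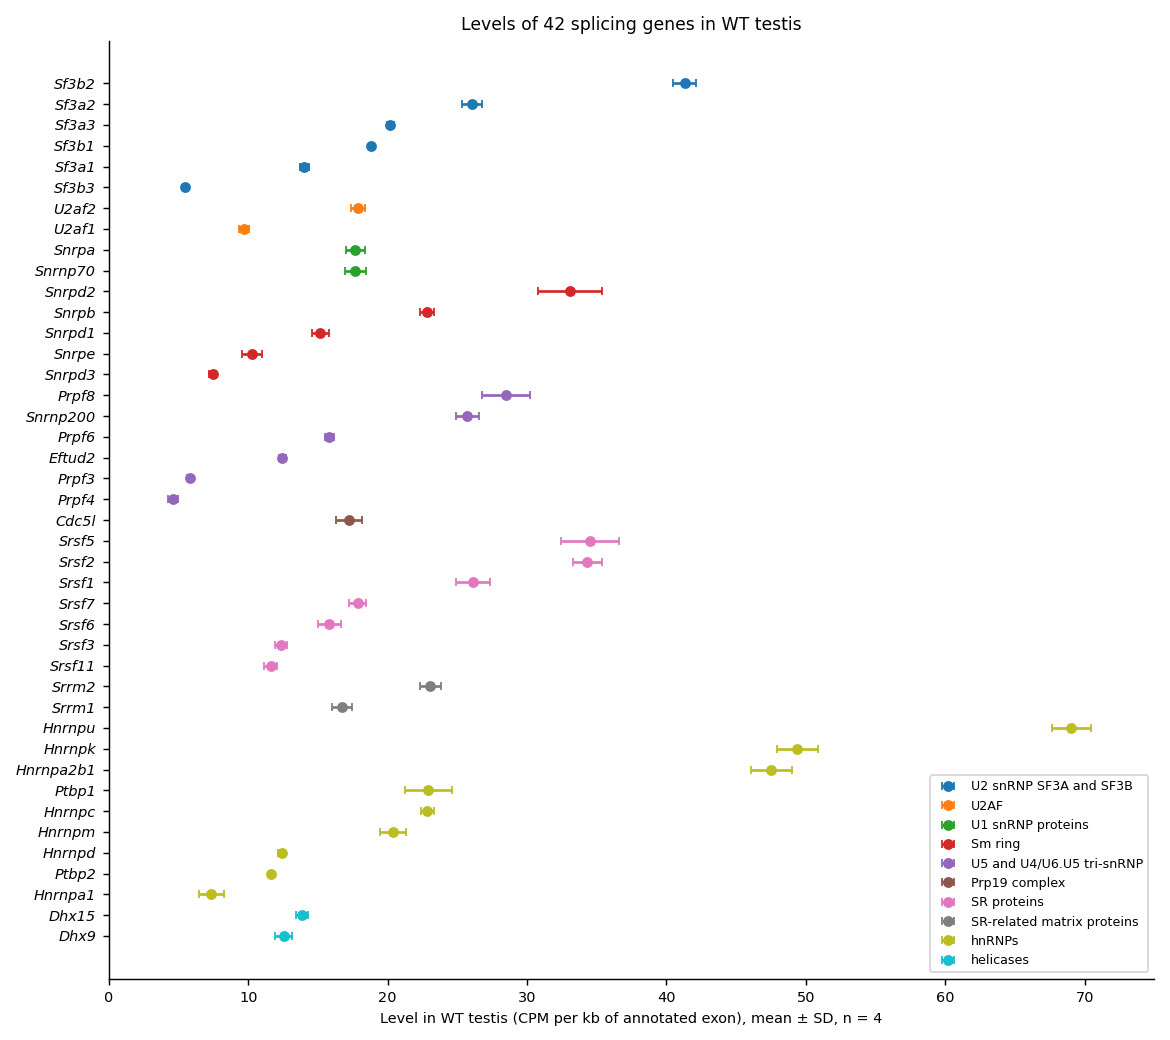
Level of each of the 42 genes in WT testis in CPM per kilobase of annotated exon, grouped and coloured by role, as mean ± SD of 4 mice. Hnrnpu stands highest at 69.0 and Prpf4 lowest at 4.60 CPM per kb.

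Among hnRNPs, Hnrnpu, a nuclear matrix-associated RNA-binding protein, had the highest level of all 42 genes at 69.0 ± 1.40 CPM per kb (SD, n = 4). Hnrnpk followed at 49.4 ± 1.46 and Hnrnpa2b1 at 47.5 ± 1.47 CPM per kb, and their WT ranges overlapped. The level of Hnrnpk is uncertain, since 34.5% of its 50-base stretches also occur in 2 pseudogenes. Hnrnpa1 was the lowest hnRNP at 7.36 ± 0.868 CPM per kb. This value is uncertain, since 28.3% of the 50-base stretches of Hnrnpa1 also occur in 18 other genes, 17 of them pseudogenes.

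Of the U2 particle, Sf3b2 had 41.3 ± 0.796 CPM per kb and Sf3b3 had 5.45 ± 0.154 (SD, n = 4). These subunits of one complex thus spanned much of the range seen over all 42 genes. Among tri-snRNP proteins, Prpf8, the large protein at the heart of the catalytic centre, was highest at 28.5 ± 1.72 CPM per kb, and the U4/U6 protein Prpf4 was lowest at 4.60 ± 0.354. Snrpd2 led the Sm proteins, which form the ring on the small nuclear RNAs, at 33.1 ± 2.27 CPM per kb, and Snrpd3 was lowest at 7.45 ± 0.264. Among SR proteins, Srsf5 had 34.5 ± 2.09 and Srsf11 had 11.6 ± 0.466 CPM per kb. The levels of Snrpd2 and Srsf5 are less certain, since 11.7% of the 50-base stretches of Snrpd2 occur in 2 pseudogenes and 11.2% of those of Srsf5 in 19 other genes. The U1 proteins Snrpa and Snrnp70 were level, at 17.7 ± 0.669 and 17.7 ± 0.759 CPM per kb. Srrm2 had 23.1 ± 0.742 CPM per kb and Srrm1, a splicing coactivator, had 16.7 ± 0.693. The helicases Dhx15, which takes spliceosomes apart, and Dhx9 had 13.8 ± 0.436 and 12.5 ± 0.606 CPM per kb, and Cdc5l of the Prp19 complex had 17.2 ± 0.924, an uncertain value with 38.5% of its 50-base stretches shared with 12 other genes. When the 42 genes were ordered by level, the WT ranges overlapped in 27 of 41 neighbouring pairs, so that much of the order in the middle is not resolved. The order depended on the length used: with the longest annotated transcript in place of all exons, the median was 30.2 CPM per kb and Hnrnpk (108 CPM per kb) stood above Hnrnpu (105 CPM per kb). By that length Eftud2 (31.3 CPM per kb) and Snrnp200 (29.8) stood above Prpf8 (28.6) among tri-snRNP proteins. Among SR proteins Srsf2 (53.5) stood above Srsf5 (39.5), and Srsf6 (21.6) was lowest in place of Srsf11 (31.6).

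Ratios of partner genes were compared per kilobase as a description. Ptbp2, the neural and germ cell paralog of the splicing repressor Ptbp1, had 0.510 ± 0.0397 times the level of Ptbp1 in WT (SD, n = 4), 0.485 ± 0.0249 in Irp1-/- (n = 4) and 0.521 ± 0.0233 in Irp2-/- testes (n = 3). The ratio of U2af2, which binds the polypyrimidine tract, to U2af1, which reads the end of the intron, was 1.85 ± 0.0891 in WT, 1.998 ± 0.0573 in Irp1-/- and 1.95 ± 0.0725 in Irp2-/- testes. U2af1 shares 59.4% of its 50-base stretches with 3 pseudogenes and U2af2 24.7% with 3, and Srsf3 shares 18.3% with 6 other genes, so that their levels and ratios are uncertain. Hnrnpa2b1 exceeded Hnrnpa1 by a ratio of 6.52 ± 0.736 in WT, 5.34 ± 0.397 in Irp1-/- and 5.46 ± 0.832 in Irp2-/- testes. The ratio of Srsf7 to Srsf3, a pair of closely related SR proteins, was 1.44 ± 0.0311 in WT, 1.47 ± 0.0835 in Irp1-/- and 1.38 ± 0.101 in Irp2-/- testes. Only the Hnrnpa2b1 to Hnrnpa1 ratio had a WT range (5.85 to 7.50) that did not overlap the Irp1-/- range (4.98 to 5.76). It did overlap the Irp2-/- range (4.58 to 6.24). The ratio is uncertain too, since Hnrnpa1 shares 28.3% of its 50-base stretches with 18 other genes. No background of ratios over other gene pairs was computed. These ratios were not tested, and their size depended on the length used. With the longest transcript the WT means were 0.773 for Ptbp2 to Ptbp1, 1.27 for U2af2 to U2af1, 11.6 for Hnrnpa2b1 to Hnrnpa1 and 1.08 for Srsf7 to Srsf3, while the proportions between genotypes stay as they are under any length.

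No splicing gene passed the threshold in Irp1-/- against WT testes, yet most fold changes were slightly negative. The 42 genes summed to 5353 ± 58.1 CPM in WT (5297 to 5417, n = 4) and to 5184 ± 63.4 CPM in Irp1-/- testes (5097 to 5235, n = 4), while Irp2-/- testes had 5424 ± 69.9 CPM (5344 to 5473, n = 3). With TMM scaling every Irp1-/- library was thus below every other library in this sum. As a share of all reads, without that scaling, the 42 genes took 0.510% to 0.527% in Irp1-/-, 0.519% to 0.544% in WT and 0.540% to 0.558% in Irp2-/- libraries, so that Irp1-/- and WT overlapped while Irp2-/- stayed above Irp1-/-. In bulk tissue, fewer cells of a type and less RNA per cell cannot be told apart.

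By edgeR's quasi-likelihood test with Benjamini-Hochberg adjustment over 16002 genes, 164 genes (1.02%) had an adjusted p under 0.05 in Irp1-/- against WT, 93 of them (0.581%) higher and 71 (0.444%) lower. Of the 42 splicing genes 0 did. DESeq2 called 0 of them as well. At an unadjusted p under 0.05, 7 of the 42 were below the threshold in edgeR (16.7%, against 12.1% of all genes tested) and 5 in DESeq2. In edgeR 6 of these were lower in Irp1-/- testes (background 5.44%) and 1 was higher (background 6.69%). The log2 fold change was negative for 35 of 42 (83.3%), against 50.3% of all genes tested and 55.9% of the 8335 genes at or above the level of the lowest of the 42. The median log2 fold change was -0.051 over the 42 genes, a factor of 0.965, and -0.00079 over all genes tested. Scaling by library totals alone left 30 of 42 negative. The 95% intervals of the 42 reached from -0.26 to 0.33, and 37 of them lay within 0.2 of 0.

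**Figure D2:**
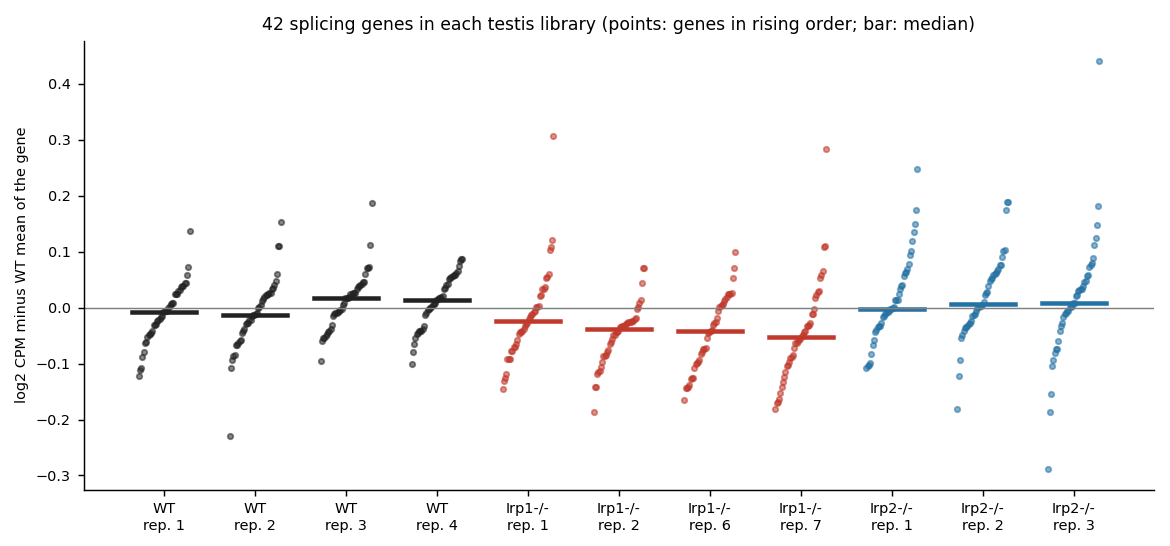
Log2 CPM of each of the 42 genes minus its WT mean, with TMM scaling, in each of the 11 testis libraries, with genes in rising order within a library and a bar at the median. The bars of the 4 Irp1-/- libraries lie between -0.053 and -0.024, below the WT bars (-0.012 to 0.017) and the Irp2-/- bars (-0.0018 to 0.0076).

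Hnrnpd (AUF1), an RNA-binding protein that also acts in mRNA decay, had the smallest p. Its level was 90.9, 88.9, 93.0 and 92.5 CPM in WT and 83.4, 86.0, 82.9 and 81.2 CPM in Irp1-/- libraries. The genotypes did not overlap, and the log2 fold change was -0.13 (SE 0.041, adjusted p = 0.122, edgeR).

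Hnrnpa2b1 followed with 302, 308, 322 and 320 CPM in WT and 298, 283, 292 and 295 CPM in Irp1-/- libraries. It too did not overlap between genotypes, at a log2 fold change of -0.10 (SE 0.037, adjusted p = 0.22, edgeR). Snrnp200, the Brr2 helicase that unwinds U4 from U6, had 198, 195, 202 and 210 CPM in WT and 189, 195, 187 and 182 CPM in Irp1-/- libraries. The ranges of Snrnp200 met at 195 CPM with a slight overlap, and its log2 fold change was -0.099 (SE 0.039, adjusted p = 0.275, edgeR).

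Groups did not overlap for 7 splicing genes, each lower in Irp1-/- testes: Sf3b1, U2af1, Eftud2, Hnrnpa2b1, Hnrnpc, Hnrnpd and Ptbp2. That is 16.7% of the 42, against 3.22% of all genes tested. In the other direction it was 0 of 42, against 3.37%, and in either direction the background was 6.59%. These backgrounds hold many genes with fewer reads and thus more counting error, and none matched for level was computed. Sf3b1, which clamps the branch point helix, had 212 to 216 CPM in WT and 198 to 208 CPM in Irp1-/- libraries (log2 fold change -0.087). U2af1 had 24.1 to 26.3 CPM in WT and 22.8 to 23.2 CPM in Irp1-/- libraries (log2 fold change -0.13). Eftud2, the GTPase of the U5 particle, and Hnrnpc, which binds uridine-rich introns, each had a log2 fold change of -0.072, and Ptbp2 had -0.077.

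By role, all 6 SF3 genes, all 6 tri-snRNP genes, both U2AF genes, both SR-related genes, both helicases and Cdc5l had a negative log2 fold change against WT. Of the hnRNPs 8 of 9 did, of the SR proteins 4 of 7, of the Sm proteins 3 of 5 and of the U1 proteins 1 of 2. The role medians ran from -0.077 for U2AF and -0.072 for the tri-snRNP to -0.0083 for SR proteins and 0.0018 for the U1 proteins. The exception among hnRNPs was Hnrnpa1, the gene with many processed copies. It had 23.8, 19.7, 26.3 and 23.1 CPM in WT and 28.6, 24.3, 24.3 and 28.1 CPM in Irp1-/- libraries. These ranges overlapped, with a log2 fold change of 0.17 (SE 0.078, adjusted p = 0.368, edgeR), and of 0.10 without WT replicate 2. The next positive values were those of Snrpb, the Sm protein B gene, and Srsf7. Snrpb had 44.9, 44.2, 46.6 and 44.8 CPM in WT and 48.5, 44.1, 45.6 and 47.0 CPM in Irp1-/- libraries (log2 fold change 0.032, SE 0.048). Srsf7 had 64.6, 60.5, 63.1 and 65.2 CPM in WT and 68.8, 62.0, 64.2 and 64.1 CPM in Irp1-/- libraries (log2 fold change 0.028, SE 0.046). For both genes the difference was smaller than its standard error. The difference between role groups was not tested.

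Markers of Sertoli and Leydig cells moved in the same libraries. All 10 Sertoli cell markers had a positive log2 fold change in Irp1-/- against WT testes, with Clu past the threshold (log2 fold change 0.16, adjusted p = 0.0473, edgeR). Their sum was 1192 to 1333 CPM in Irp1-/- and 1073 to 1153 CPM in WT libraries. For Leydig cells 8 of 9 tested markers had a positive fold change, with a sum of 1045 to 1242 CPM in Irp1-/- and 777 to 1117 CPM in WT libraries, and Hsd17b3 passed the threshold (log2 fold change 0.37, adjusted p = 0.0232, edgeR). Of 10 spermatocyte markers 6 had a negative fold change (1888 to 1940 CPM in Irp1-/-, 1941 to 1975 CPM in WT), and of 9 tested spermatogonial markers 7 did (707 to 715 CPM and 724 to 735 CPM). The sums of these lists of earlier germ cells did not overlap between the genotypes, and no single germ cell marker passed the threshold. Such a sum is set mostly by the most abundant genes of its list, so it is not a measure of cell number. Round spermatid markers went the other way, with 2 of 10 negative and overlapping sums (2052 to 2203 CPM in Irp1-/-, 2014 to 2131 CPM in WT). Elongating spermatid markers were negative for 7 of 10, with sums of 23509 to 26849 CPM in Irp1-/- and 24754 to 25872 CPM in WT libraries that overlapped. All 3 tested blood markers were positive, and none passed the threshold. The blood list summed to 37.2 to 56.6 CPM in Irp1-/- and 30.1 to 37.1 CPM in WT libraries. Of 8 peritubular myoid and endothelial markers 5 were negative, with overlapping sums (121 to 126 CPM in Irp1-/-, 114 to 128 CPM in WT). Of 8 macrophage markers 2 were negative, with sums that overlapped as well (66.8 to 70.6 CPM and 59.0 to 73.6 CPM). Clu lost its call on leaving out any of WT replicates 1, 2 and 3 or Irp1-/- replicates 1 and 6, and Hsd17b3 on leaving out any of WT replicates 1 and 2 or Irp1-/- replicates 1 and 7. With all 11 libraries in the fit neither was past the threshold (adjusted p = 0.109 for Clu and 0.103 for Hsd17b3, edgeR), and with library totals alone Clu was not (adjusted p = 0.0762, edgeR). The part of cell composition in the splicing gene values was not tested.

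Against the same 4 WT libraries, Irp2-/- testes showed no splicing gene past the threshold. Of 16154 genes tested, 196 (1.21%) had an adjusted p under 0.05 by edgeR's quasi-likelihood test, 60 (0.371%) higher and 136 (0.842%) lower, and 0 of the 42 did. DESeq2 also called 0. At an unadjusted p under 0.05 there were 2 of the 42 in both tools (4.76%, against 9.42% of all genes tested in edgeR), with Srrm2 higher (background 4.69%) and Snrpd2 lower (background 4.74%). The log2 fold change was negative for 15 of 42 (35.7%, against 48.7% of all), with a median of 0.019 against 0.0033 over all genes tested. Scaling by library totals alone left 9 of 42 negative. The 95% intervals reached from -0.29 to 0.43, and 34 of 42 lay within 0.2 of 0.

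Srrm2, a very large SR-related protein that scaffolds nuclear speckles, was the leading gene. Its level was 304, 282, 301 and 297 CPM in WT and 309, 337 and 336 CPM in Irp2-/- libraries. Every Irp2-/- library lay above every WT library, and the log2 fold change was 0.15 (SE 0.046, adjusted p = 0.165, edgeR). Without Irp2-/- replicate 1, the lowest of the 3, the adjusted p of Srrm2 was 0.030 in edgeR. The other positive leaders were Hnrnpa1, with 23.3, 26.3 and 31.4 CPM in Irp2-/- libraries (log2 fold change 0.21, SE 0.10), and Prpf8, with 195, 212, 218 and 225 CPM in WT and 233, 221 and 219 CPM in Irp2-/- libraries (log2 fold change 0.082, SE 0.050). Both overlapped WT. The log2 fold change of Hnrnpa1 was 0.092 without Irp2-/- replicate 3 and 0.14 without WT replicate 2, and that of Prpf8 was 0.052 without Irp2-/- replicate 1 and 0.041 without WT replicate 1.

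The lower genes with the smallest p in Irp2-/- testes were Snrpd2, Snrpa and Snrpd1, and none passed the threshold. Snrpd2 had 80.2, 93.3, 83.3 and 89.6 CPM in WT and 86.3, 76.2 and 70.7 CPM in Irp2-/- libraries (log2 fold change -0.15, SE 0.065, adjusted p = 0.441, edgeR). The groups overlapped through Irp2-/- replicate 1, and without it the log2 fold change was -0.24 and the adjusted p of Snrpd2 was 0.0436 in edgeR. Without Irp2-/- replicate 3 its log2 fold change was -0.090. Snrpa, which binds a loop of U1 RNA, had 53.5, 54.6, 50.6 and 50.9 CPM in WT and 48.9, 49.1 and 48.7 CPM in Irp2-/- libraries (log2 fold change -0.096, SE 0.053, adjusted p = 0.641, edgeR). Snrpd1 had 32.7, 31.5, 30.2 and 30.1 CPM in WT and 28.8, 28.6 and 29.5 CPM in Irp2-/- libraries (log2 fold change -0.099, SE 0.061, adjusted p = 0.695, edgeR). Snrpa and Snrpd1 did not overlap between the genotypes, and with Srrm2 these were the 3 genes of 42 (7.14%) without overlap, against 9.31% of all genes tested. The background was 4.57% for higher and 4.74% for lower genes, and it was not matched for level. By role, 3 of 5 Sm genes, 5 of 9 hnRNPs, 2 of 6 tri-snRNP genes, 1 of 6 SF3 genes, 1 of 7 SR proteins and 1 of 2 each of the U1 proteins, U2AF genes and helicases had a negative fold change, and none of Srrm1, Srrm2 and Cdc5l did. The Sm genes Snrpe and Snrpb had positive values (log2 fold changes of 0.072 and 0.070). Snrpe shares 20.8% of its 50-base stretches with 2 pseudogenes and Snrpd1 13.8% with 1, so that their values are uncertain. The difference between roles was not tested in this comparison.

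Markers in the same libraries differed in direction by cell type. All 10 elongating spermatid markers had a negative log2 fold change in Irp2-/- against WT testes, with sums of 21316 to 25235 CPM and 24754 to 25872 CPM that overlapped, and 7 of 8 macrophage markers a positive one. Of 10 spermatocyte markers 8 were negative, and of 10 round spermatid markers 8 were. Of 9 tested spermatogonial markers 3 were negative, of 10 Sertoli markers 4 and of 9 tested Leydig markers 4. Of 8 peritubular myoid and endothelial markers 3 were negative. The endothelial gene Vwf was the 1 marker past the threshold (log2 fold change 0.37, adjusted p = 0.0127, edgeR). Its adjusted p was 0.124 in edgeR when Irp2-/- replicate 2 was left out and 0.0511 when WT replicate 3 was. Their part in the splicing gene values was not tested.

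**Figure D3:**
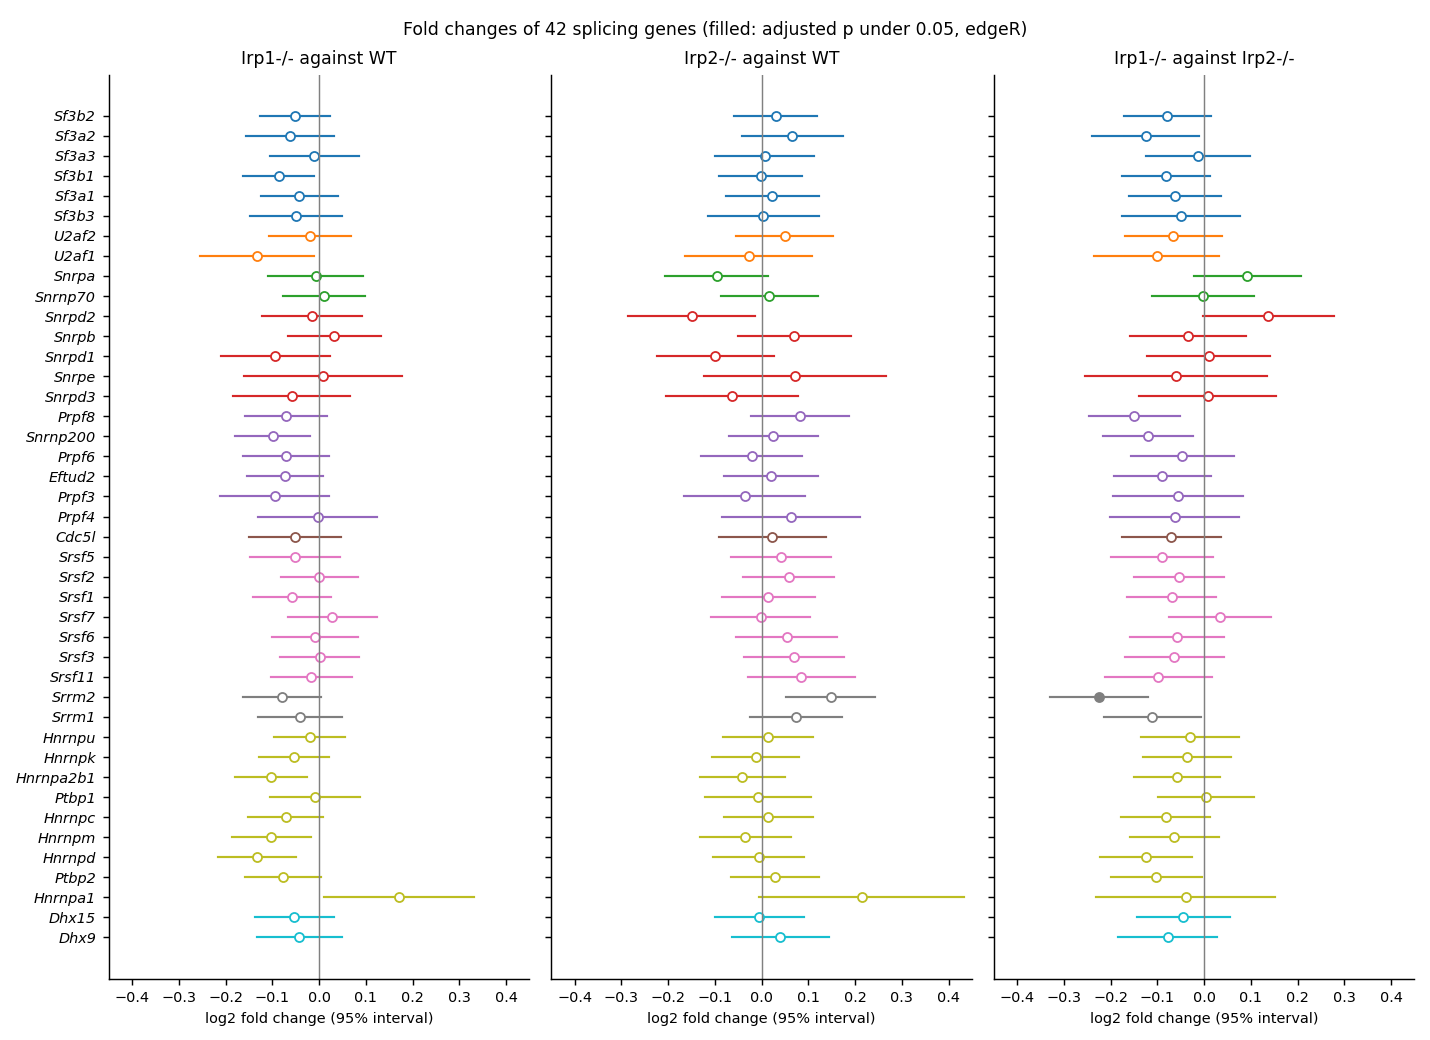
Log2 fold changes of the 42 genes with 95% intervals in the 3 comparisons, with genes grouped and coloured by role and filled points past an adjusted p of 0.05 in edgeR. Irp1-/- and Irp2-/- share the WT libraries, and Srrm2 in Irp1-/- against Irp2-/- is the 1 filled point at -0.22.

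Comparing the knockouts with each other gave the 1 call among the splicing genes. Srrm2 had 273, 291, 295 and 264 CPM in Irp1-/- and 309, 337 and 336 CPM in Irp2-/- libraries. The ranges did not overlap, the means were 281 and 327 CPM, and Srrm2 was lower in Irp1-/- testes by a log2 fold change of -0.22 (SE 0.050, adjusted p = 0.00992, edgeR), a factor of 0.856. The WT mean of 296 CPM lay between these means, and the WT libraries (282 to 304 CPM) overlapped the Irp1-/- libraries. The call was lost without Irp1-/- replicate 1 (adjusted p = 0.0612, edgeR) and without Irp2-/- replicate 2 (adjusted p = 0.079, edgeR), while the log2 fold change stayed between -0.26 and -0.20 whichever library was left out. Srrm2 shares 2.67% of its 50-base stretches with 1 other gene and overlaps Elob on the opposite strand. The library kit was stranded, but whether counting used strand is not given in the sources used here.

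In this comparison 763 of 16281 genes tested (4.69%) had an adjusted p under 0.05 in edgeR, 287 of them (1.76%) lower and 476 (2.92%) higher in Irp1-/- testes. Srrm2 was 1 of 42 (2.38%). Unadjusted p was under 0.05 for 7 of 42 (16.7%, against 16.3% of all), and all 7 were lower in Irp1-/- testes (background 7.49%, and 8.85% for higher genes): Sf3a2, Prpf8, Snrnp200, Srrm1, Srrm2, Hnrnpd and Ptbp2. Fold changes were negative for 36 of 42 (85.7%, against 50.6%), with a median of -0.062 against -0.0019 over all genes tested. Scaling by library totals alone made 39 of 42 negative. The 95% intervals spanned -0.33 to 0.28, and 29 of 42 lay within 0.2 of 0.

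Prpf8 was next, with 205, 203, 194 and 208 CPM in Irp1-/- and 233, 221 and 219 CPM in Irp2-/- libraries. The knockouts did not overlap, and the log2 fold change was -0.15 (SE 0.047, adjusted p = 0.0744, edgeR). DESeq2 put Prpf8 past the threshold (adjusted p = 0.0473), as did edgeR with library totals alone (adjusted p = 0.0453). Hnrnpd, at 81.2 to 86.0 CPM in Irp1-/-, had 92.1, 88.6 and 91.4 CPM in Irp2-/- libraries (log2 fold change -0.12, SE 0.048, adjusted p = 0.169, edgeR), again without overlap. Irp2-/- and WT libraries of Hnrnpd overlapped.

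The 6 positive fold changes were led by Snrpd2, with 84.0, 87.3, 79.1 and 93.2 CPM in Irp1-/- libraries (log2 fold change 0.14, SE 0.067, adjusted p = 0.314, edgeR), which overlapped the Irp2-/- libraries. Without Irp2-/- replicate 1 its log2 fold change was 0.22 (adjusted p = 0.0388, edgeR), and without Irp2-/- replicate 3 it was 0.078. Snrpa followed with 49.1, 55, 51.2 and 53.4 CPM in Irp1-/- libraries (log2 fold change 0.092, SE 0.055, adjusted p = 0.445, edgeR), each above the highest Irp2-/- library at 49.1 CPM by a narrow margin. Srsf7 had 62.9, 61.9 and 64.7 CPM in Irp2-/- libraries and a log2 fold change of 0.034 (SE 0.052).

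**Figure D4:**
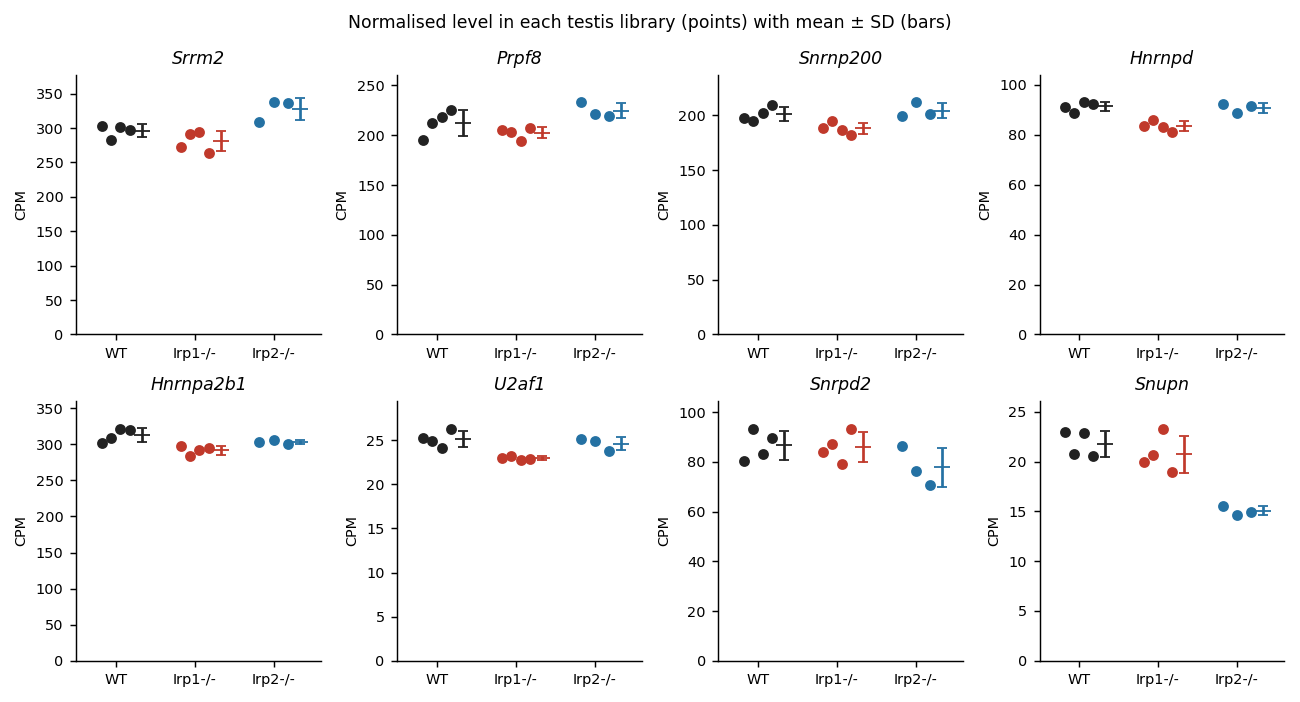
CPM of 7 splicing genes and of Snupn, a gene of snRNP import, in each testis library, with mean ± SD beside the points of each genotype and axes that start at 0. Srrm2 separates the knockouts (264 to 295 against 309 to 337 CPM), and Snupn is low in the 3 Irp2-/- libraries (14.7 to 15.6 CPM).

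The knockouts did not overlap for 16 of 42 splicing genes (38.1%, against 15.1% of all genes tested). Of these, 15 were lower in Irp1-/- testes (35.7%, against 7.25%): the SF3 genes Sf3a1, Sf3b1 and Sf3b2, U2af1, the tri-snRNP genes Prpf8 and Snrnp200, the SR proteins Srsf1 and Srsf2, Srrm1 and Srrm2, and the hnRNPs Hnrnpa2b1, Hnrnpc, Hnrnpd, Hnrnpm and Ptbp2. The 1 gene in the other direction was Snrpa (2.38%, against 7.89%). The backgrounds were not matched for level here either. Hnrnpm shares 28.8% of its 50-base stretches with 1 other gene, and it overlaps March2 on its strand. By role, all 6 SF3 genes and all 6 tri-snRNP genes had negative fold changes, as did 8 of 9 hnRNPs and 6 of 7 SR proteins, while 2 of 5 Sm genes did. Between the knockouts, 3 Sertoli markers (Amh, Rhox5 and Fshr) and 3 Leydig markers (Hsd3b1, Insl3 and Nr5a1) were higher in Irp1-/- testes past the threshold, with log2 fold changes of 0.24 to 0.86. All 6 calls were lost without Irp2-/- replicate 2, 5 of them without Irp1-/- replicate 1, and 1 to 4 without any other library. Each of the 6 also lost its call with at least 1 of library totals alone, no count filter, DESeq2 or all 11 libraries in the fit. The spermatogonial gene Sall4 (log2 fold change -0.58, adjusted p = 0.0316, edgeR) and the endothelial gene Vwf (log2 fold change -0.47, adjusted p = 5.51e-04, edgeR) were lower in Irp1-/- testes. The round spermatid gene Tex21 was higher (log2 fold change 0.17, adjusted p = 0.0422, edgeR). Leaving out a library never ended the call of Vwf, but ended that of Sall4 for Irp1-/- replicates 1, 2 and 7 and Irp2-/- replicates 1 and 3, and that of Tex21 for Irp1-/- replicates 1, 2 and 6 and Irp2-/- replicates 2 and 3. Of the tested markers, 8 of 9 spermatogonial and 7 of 8 macrophage genes had negative fold changes. All 10 round spermatid and all 3 blood genes had positive ones. The list with Vwf, of peritubular myoid and endothelial genes, was split, with 4 of 8 negative. Negative values were found for 5 of 10 spermatocyte, 3 of 10 elongating spermatid and 2 of 10 Sertoli markers. The Sertoli markers summed to 1192 to 1333 CPM in Irp1-/- and 1074 to 1222 CPM in Irp2-/- libraries, and the Leydig markers to 1045 to 1242 CPM and 804 to 1060 CPM. Their part in the splicing gene values was not tested.

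Longer genes showed the lower values between the knockouts. The 42 genes were split at their median annotated exon length of 5690.5 bases. All 21 longer genes had a negative log2 fold change in Irp1-/- against Irp2-/- testes (median -0.078), and 15 of the 21 shorter ones did (median -0.054). Over all genes tested with a length, 57.9% of those above 5690.5 bases were negative (median -0.021) and 47.5% of the others (median 0.0075). Against WT, 19 of 21 longer and 16 of 21 shorter splicing genes were negative in Irp1-/- testes (52.8% and 49.1% of all genes), and 6 and 9 of 21 in Irp2-/- testes (42.6% and 51.5%). Length thus moved with the fold change over all genes as well as over the splicing genes, and its part in the values of the 42 was not tested.

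**Figure D5:**
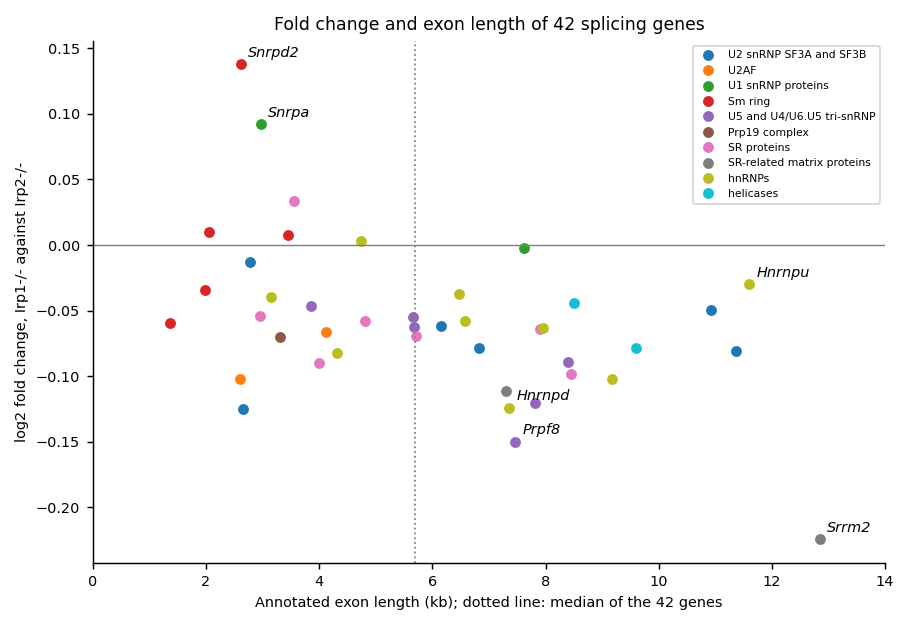
Log2 fold change of the 42 genes in Irp1-/- against Irp2-/- testes over annotated exon length in kilobases, coloured by role, with a dotted line at the median length. All 21 points right of the line are below 0, with Srrm2, the longest gene at 12842 bases, lowest at -0.22.

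Among 139 further genes of the splicing pathway that are not in the list of 42 (other snRNP and Prp19 complex proteins, the minor spliceosome, SR kinases, hnRNPs, tissue regulators and snRNP assembly factors), 138 were matched in the table and 135 were tested. In Irp1-/- against WT, 0 of 135 had an adjusted p under 0.05 in edgeR, 15 had an unadjusted p under 0.05 (3 higher, 12 lower), which is 11.1% against 12.1% of all genes tested, and 91 had a negative fold change (67.4%, against 50.3%). In Irp2-/- against WT, 59 were negative (43.7%, against 48.7%), 6 had an unadjusted p under 0.05 (4.44%, against 9.42%) and 1 passed the threshold. Between the knockouts 90 were negative (66.7%, against 50.6%), 13 had an unadjusted p under 0.05 (9.63%, against 16.3%), and the same gene passed in the other direction.

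That gene was Snupn, which encodes snurportin, the adaptor that carries assembled snRNPs back into the nucleus. Snupn had 22.97, 20.8, 22.9 and 20.6 CPM in WT, 19.9, 20.7, 23.3 and 19.0 CPM in Irp1-/- and 15.6, 14.7 and 14.9 CPM in Irp2-/- libraries. Every Irp2-/- library was below all others. Snupn fell by 0.53 on the log2 scale in Irp2-/- against WT testes (SE 0.077, adjusted p = 2.85e-04, edgeR) and was higher in Irp1-/- than in Irp2-/- testes by 0.46 (SE 0.081, adjusted p = 0.00125, edgeR). Snupn lies on chromosome 9 of mm10 from 56949419 to 56986261, which is 2036885 bases past the end of the targeted gene Ireb2 on the same chromosome. Snupn stayed past the threshold in all 14 alternatives of each comparison, those leaving out a library included. The loss of Ireb2 and the DNA that surrounds the targeted allele in these mice cannot be told apart here. None of the 42 genes lies on chromosome 9, and 3 of them (Sf3a3, Prpf4 and Srrm1) lie on chromosome 4 with Aco1, with log2 fold changes of -0.011, -0.0029 and -0.042 in Irp1-/- against WT testes.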

How the data were processed

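Bulk polyA RNA-seq of testes from 4 WT, 4 Irp1-/- and 3 Irp2-/- mice was examined. The authors deposited raw read counts per gene, made from 50-base paired-end reads of a stranded kit with the nf-core RNA-seq pipeline on mm10. The counting tool is not given in the sources used here. For each pair of genotypes these counts entered edgeR 4.0.16 under R 4.3.3, using filterByExpr, TMM factors and the robust quasi-likelihood test, and p-values were adjusted after Benjamini-Hochberg over all genes tested. DESeq2 1.42.0 was an alternative, as were other scalings, filters, fits, a replicate block and leaving out each library. Scripts were tested on simulated data. Depth was 15902473 to 22451417 counts per library, which limits precision by counting error only.

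CPM are TMM-scaled. Log2 CPM used a prior count of 2. Exon lengths and shared 50-base stretches came from GENCODE M21, positions and promoters from RefSeq on GRCm38.p6. The 42 genes and all lists were chosen with earlier results of these data known. Genes given in full were those with an adjusted p under 0.05, the 3 per direction and comparison with the smallest p, and the highest and lowest of each role; others without overlap between genotypes were named after their values were seen. Marker lists and counts follow the same fits. Both knockouts were compared with the same WT libraries.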

Additional observations from a re-analysis of the deposited data

Results flagged for a closer look

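U2af2, the large U2AF subunit, had 70.4 CPM in WT replicate 1, apart from the other 3 WT libraries at 74.5 to 74.9 CPM. The gap took 0.899 of the range of the group, a range that was narrow in CPM. In all, 32 groups of 4 libraries were checked and 1 library was set apart, while chance sets a library apart in about 1 in 20 groups.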

How the results depend on the processing

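The count of splicing genes past the threshold in Irp1-/- against WT was 0 under every alternative run, and in Irp2-/- against WT it was 0 except for 0 to 2 when a library was left out, with 2 (Srrm2 and Snrpd2) without Irp2-/- replicate 1. In Irp1-/- against Irp2-/- it was 2 (Prpf8 and Srrm2) with library totals alone and with DESeq2, and 0 to 2 when a library was left out: 0 without Irp1-/- replicate 1 or Irp2-/- replicate 2, and 2 (Srrm2 and Snrpd2) without Irp2-/- replicate 1. The cause was not tested.

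Over all genes, leaving out a library gave 55 (without Irp1-/- replicate 1) to 216 (without Irp1-/- replicate 2) calls in Irp1-/- against WT, with 84 without WT replicate 2, 102 without Irp1-/- replicate 6 and 106 without WT replicate 4. It gave 118 (without Irp2-/- replicate 2) to 223 in Irp2-/- against WT, and 414 (without Irp2-/- replicate 2) to 763 between the knockouts, with 471 without Irp1-/- replicate 1. The median log2 fold change of the 42 genes ranged from -0.055 to -0.035, from 0.011 to 0.023 and from -0.070 to -0.057 in these fits. With library totals alone it was -0.038 in Irp1-/- and 0.038 in Irp2-/- against WT, while the median of all genes tested moved to 0.012 and 0.023. The number of negative fold changes lay between 33 and 37, between 12 and 17 and between 33 and 39 of 42 when a library was left out. The log2 fold change of Aco1 in Irp1-/- against WT ranged from -0.53 (without WT replicate 1) to -0.41 (without WT replicate 4), and its adjusted p was over 0.05 without Irp1-/- replicate 6 or WT replicate 2, 3 or 4 (edgeR). That of Srsf7 in Irp1-/- against WT ranged from -0.0017 (reversed, without Irp1-/- replicate 1) to 0.050 (without Irp1-/- replicate 2).

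Same-numbered libraries of different genotypes did not deviate together (correlations of -0.010 to 0.078 across genes), and WT replicate 1 correlated better with Irp1-/- replicate 6 (0.068) than with Irp1-/- replicate 1 (0.059). The replicate block rests on shared numbers only. Irp1-/- libraries share just the numbers 1 and 2 with WT and with Irp2-/-, so these fold changes rest on those libraries. With the block, 439 genes were called in Irp1-/- against WT, and the median of the 42 genes was -0.033. Aco1 lost its call (log2 fold change -0.28), Snrnp200 was at -0.038 and Hnrnpa1 at 0.28. Srrm2 kept its call between the knockouts (adjusted p = 0.0341, edgeR). The alternatives for Aco1, Ireb2, Snupn and the marker genes were chosen after seeing the data. Ireb2 passed the threshold in all 14 of its alternatives. Snupn lay between -0.56 and -0.51 in Irp2-/- against WT and between 0.40 and 0.49 between the knockouts.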
